A study of Mus musculus with 12 samples.

Results

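Lipid handling genes of myeloid cells were examined in bone marrow-derived dendritic cells (BMDCs) of the mouse. The 10 genes were chosen by symbol from the 41709 genes counted: Apoe, Lpl, Fabp4, Fabp5, Cd36, Plin2, Abca1, Abcg1, Trem2 and Gpnmb. All 10 passed the filter on low counts in every comparison. Bone marrow cells were cultured for 10 days with GM-CSF, and MHCII+ cells were isolated with magnetic beads. CD18fl/fl mice carry loxP sites around an exon of Itgb2, the gene of the β2 integrin chain CD18, in both alleles. CD18ΔCD11c mice (termed CD18CD11c cKO) carry the same floxed alleles plus Cre recombinase under the promoter of CD11c, which is active in dendritic cells and in part of the macrophages. So all 4 groups were homozygous for the floxed allele, and the control groups lacked Cre only. Cells of each genotype were left untreated or received 100 ng/mL of the bacterial cell wall component LPS for 24 h per the labels, with 3 libraries per group and 12 in all. The labels do not tell whether the 3 libraries of a group came from separate mice or cultures. So p-values measure only the spread between these libraries. In the cKO groups replicate 3 held 0 and 2 Y-linked reads, against 5582 to 8842 in replicates 1 and 2, so the spread there was not only technical. Between the other libraries it may be technical.

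The genes stand for consecutive steps by which macrophages and dendritic cells handle lipid. Apoe is a secreted apolipoprotein that carries cholesterol, and Lpl hydrolyses triglyceride in lipoproteins. Cd36 takes up fatty acids and oxidized lipoproteins, Fabp4 and Fabp5 carry fatty acids within the cell, and Plin2 coats lipid droplets. Abca1 and Abcg1 export cholesterol to lipoprotein particles. Trem2 is a receptor for lipids and apolipoproteins that signals through the adaptor Tyrobp (DAP12), and Gpnmb is a glycoprotein of phagocytes that accompanies lysosomal and lipid load. The nuclear receptors LXR (Nr1h2, Nr1h3) and PPARγ (Pparg) are known to drive several of these genes.

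Promoter sequences are shown for 3 of the genes that differed in at least 1 comparison below and whose window holds a half-site of nuclear receptors. They come from RefSeq, with 250 bases before and 50 after the start site. RefSeq windows were matched for 6 of the 10 genes, and each sequence shown occurred once in GRCm39, the build of the deposited coordinates. The letters searched were AGGTCA on both strands (capitals). It was held by 3 of the 6 matched genes and by 16.3% of all 32851 RefSeq promoter windows. In each of the 3 it read TGACCT on the strand of the gene, starting 68 bases before the start site in Trem2 (chr17:48653179-48653478, plus strand), 218 before in Plin2 (chr4:86588247-86588546, minus strand) and 228 before in Cd36 (chr5:18040845-18041144, minus strand). The Cd36 window belongs to a start site within the deposited gene (17986688 to 18093799), not at its 5' end.
Trem2: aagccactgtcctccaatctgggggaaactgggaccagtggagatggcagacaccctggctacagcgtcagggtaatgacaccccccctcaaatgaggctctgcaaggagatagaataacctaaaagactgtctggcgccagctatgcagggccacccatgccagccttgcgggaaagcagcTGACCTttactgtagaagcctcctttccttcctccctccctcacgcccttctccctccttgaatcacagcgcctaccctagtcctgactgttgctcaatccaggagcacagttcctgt
Plin2: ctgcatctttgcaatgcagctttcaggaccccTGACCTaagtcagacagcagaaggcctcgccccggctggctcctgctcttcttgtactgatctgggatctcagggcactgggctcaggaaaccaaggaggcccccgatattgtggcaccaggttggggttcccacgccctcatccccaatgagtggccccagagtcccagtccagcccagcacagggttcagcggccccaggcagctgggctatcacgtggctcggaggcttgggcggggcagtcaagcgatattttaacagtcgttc
Cd36: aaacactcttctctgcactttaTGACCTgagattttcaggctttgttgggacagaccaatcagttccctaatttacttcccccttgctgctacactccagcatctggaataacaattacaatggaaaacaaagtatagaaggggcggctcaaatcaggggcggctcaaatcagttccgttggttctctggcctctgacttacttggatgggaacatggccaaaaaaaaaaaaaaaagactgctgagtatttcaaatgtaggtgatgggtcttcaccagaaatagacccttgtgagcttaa
Such a match describes letters and no binding. PPARγ and LXR bind, with their partner RXR, direct repeats of such half-sites with 1 or 4 bases between the copies. Repeats of exactly AGGTCA in these forms were in none of the 6 genes' windows and in 0.0396% and 0.0152% of all windows. At such shares 6 windows would rarely hold one, so the absence tells nothing about these genes. Repeats with other letters were not searched. The letters CACGTG were in the windows of Abca1 and Plin2 and in 7.15% of all.

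Libraries held between 29689149 and 34037178 total gene reads, of which the 10 genes took 0.481% to 1.29%. Levels are given as total gene reads scaled by library size and TMM factor over all 12 libraries (CPM). On this scale a floor of 3 reads lay between 0.0752 and 0.135 CPM and covers counting error only. Itgb2 was counted at 379 to 420 CPM in untreated CD18fl/fl and 120 to 189 CPM in untreated cKO BMDCs, and at 167 to 266 and 89.7 to 119 CPM, respectively, after LPS. The genotypes did not overlap in either state, and RNA of the gene remained in every cKO library. Dendritic cell markers (10 genes, H2-Aa, Cd74, Zbtb46 and Ccr7 among them) summed to 12831 to 33401 CPM over the 12 libraries. Most of this sum came from H2-Aa, H2-Ab1 and Cd74, genes of MHCII and its invariant chain, and MHCII served to isolate the cells. In untreated CD18fl/fl replicates 1 to 3, Flt3 had 951, 1414 and 84 reads and Ccr7 had 81741, 90348 and 9006. Zbtb46 had 935, 922 and 731 reads there, and Itgax had 6285, 8375 and 16967. Macrophage markers (11 genes, Adgre1, C1qa and Mertk among them) summed to 1155 to 2333 CPM, and all 11 were detected. Among the other cell types, neutrophil markers reached 1335 CPM in untreated CD18fl/fl replicate 1 and at most 202 CPM in the other libraries. Mast cell or basophil markers reached 165 CPM, B cell markers 95.2, endothelial markers 78.0, stromal markers 74.1, eosinophil markers 40.2, T cell markers 33.8 and erythroid markers 23.6 CPM. The endothelial maximum was nearly all Kdr, with 3067 reads in LPS-treated CD18fl/fl replicate 3 against 0 to 4 of each other endothelial marker. The stromal maximum was nearly all Lepr, with 2549 reads in untreated cKO replicate 3 against 0 to 11 of each other stromal marker. Adipocyte markers, which bear on Fabp4, Lpl, Cd36 and Plin2, summed to at most 0.400 CPM, with 2 of the 5 at 0 in every library. The reads of 4 Y-linked genes summed to 0 and 2 in replicate 3 of untreated and LPS-treated cKO BMDCs and to between 3039 and 8842 in the other 10 libraries, so this pair differs from its same-numbered controls in more than Itgb2.

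Replicate 3 stood apart in all 4 groups, most in Apoe. Apoe (chromosome 7, 19430034 to 19433113, minus strand) was counted with 85009 and 98733 reads in replicates 1 and 2 of untreated CD18fl/fl BMDCs and with 176 reads in replicate 3. Untreated cKO BMDCs had 17805, 67274 and 58 reads of Apoe, respectively. After LPS it had 10371, 11492 and 121 reads in CD18fl/fl and 1001, 4154 and 141 reads in cKO BMDCs. The mean of replicates 1 and 2 exceeded replicate 3 by 514-fold and 858-fold in untreated CD18fl/fl and cKO BMDCs, and by 124-fold and 24.9-fold after LPS. All 4 libraries of replicate 3 lay below the 8 others. The neighbouring apolipoprotein gene Apoc1 had 0 reads in all 4 libraries of replicate 3. In replicates 1 and 2 it had 17 to 84 reads untreated and 0 to 16 after LPS, with the 0 in LPS-treated cKO replicate 1. Apoc2, in the same cluster, had 22 to 215 reads in 3 of the libraries of replicate 3 and 1571 in LPS-treated cKO replicate 3, against 817 to 3507 in replicates 1 and 2. The flanking gene Tomm40, an import pore subunit of mitochondria, was counted in replicate 3 with 466 to 1219 reads, above replicates 1 and 2 of its group throughout.

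**Figure D1:**
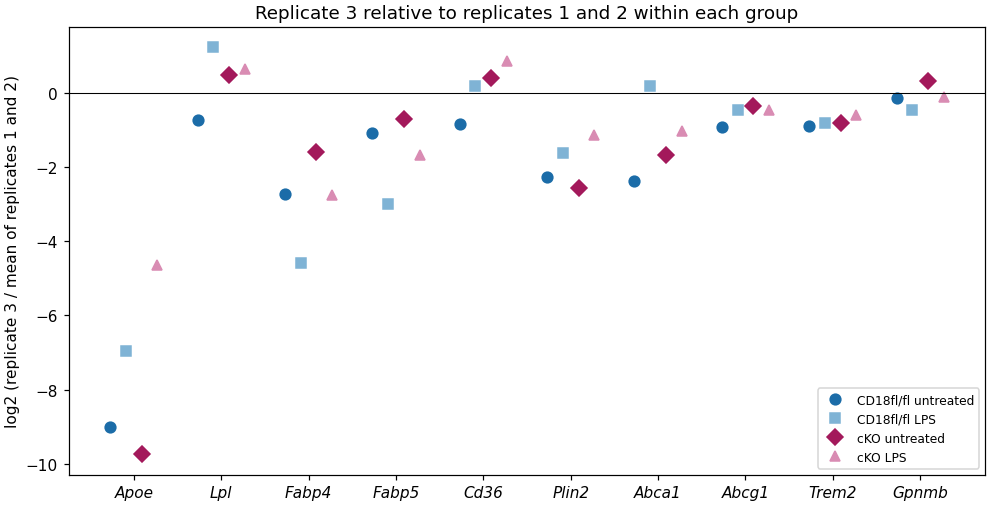
The log2 ratio of replicate 3 to the mean of replicates 1 and 2 (CPM) is plotted for each gene and each of the 4 groups. Apoe lies between -9.74 and -4.64, Fabp4 and Plin2 lie below -1 in all groups, and Lpl, Cd36, Gpnmb and Abca1 lie on both sides of 0.

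Replicate 3 was the lowest library within all 4 groups for 5 of the 10 genes (Apoe, Fabp4, Fabp5, Abcg1 and Plin2) and the highest within all 4 groups for 0. Over all 13752 genes the lowest position was found in 15.7% and the highest in 17%. Since the libraries with the same number deviated together (correlations in the processing account), fits are given plain and with replicate number as a term (the block), and the counts of members called also without replicate 3. What sets replicate 3 apart was not tested.

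**Figure D2:**
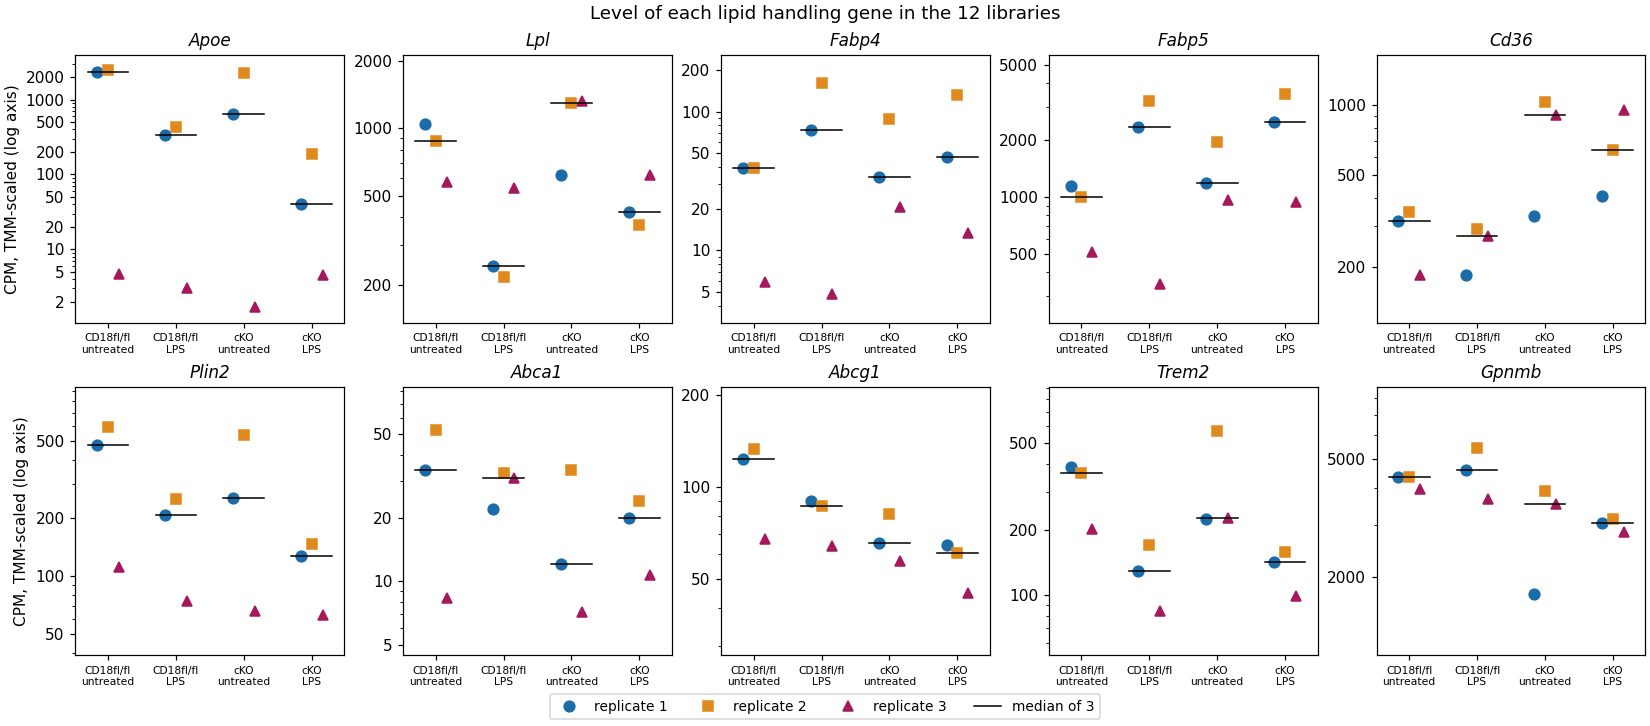
CPM (TMM-scaled, log axis) of the 10 genes in the 12 libraries, with 1 point per library and a line at the median of each group. Replicate 3 of Apoe lies between 1.68 and 4.70 CPM in all groups, and Cd36 of LPS-treated cKO BMDCs lies above LPS-treated CD18fl/fl BMDCs in every library.

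Per kilobase of exon, the genes differed widely in level. In untreated CD18fl/fl BMDCs, Gpnmb had the highest mean RPKM of the 10 with 914 (rank 89 of 13752 genes), followed by Fabp5 with 895 and Apoe with 805 ± 696 (SD, n = 3). Trem2, Lpl and Plin2 had 279, 192 and 186 RPKM. Cd36 had 78.8, Fabp4 31.5 and Abcg1 15.8 RPKM, whereas Abca1 was the lowest with 3.07 RPKM (rank 6872). In untreated cKO BMDCs Fabp5 led with 1386 RPKM before Gpnmb with 662, and Abca1 was again the lowest with 1.72. Mean levels ordered the 4 groups differently from gene to gene, and most neighbours in that order overlapped. The exceptions were 3: Trem2 between untreated CD18fl/fl and LPS-treated cKO, Gpnmb between untreated CD18fl/fl and untreated cKO, and Cd36 between LPS-treated cKO and untreated CD18fl/fl BMDCs.

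The response to LPS was compared within each genotype. In CD18fl/fl BMDCs, 0 of the 10 genes passed the threshold of edgeR's quasi-likelihood test (adjusted p under 0.05) without the block, against 3.89% of 12744 genes. With the block 3 of 10 passed, all lower, against 12.8% of all genes in either direction and 6.43% in that one: Trem2, Apoe and Plin2. In cKO BMDCs 0 passed without the block, against 3.99% of 12687 genes, and 2 passed with it, Lpl and Trem2, both lower, against 20.2% in either direction and 9.93% lower. Without the block 2 members had an unadjusted p under 0.05 in each genotype, and DESeq2 called 2 in each (Lpl and Trem2, lower), against 12.8% and 10.7% of all genes. The block with an offset for gene length called Apoe, Trem2 and Plin2 in CD18fl/fl (13.6% of all genes) and Lpl and Trem2 in cKO BMDCs (20.1%). On replicates 1 and 2 alone, without the block, 8 of the 10 passed in CD18fl/fl BMDCs, where 47.5% of all genes passed. In cKO BMDCs 2 did (Apoe and Plin2), where 15.9% of all genes passed. With the block added there, 9 and 5 passed, where 6371 of 12924 and 4057 of 12872 genes did. The median log2 fold change of the 10 genes was -0.30 in CD18fl/fl and -0.27 in cKO BMDCs, against -0.02 and -0.01 over all genes tested.

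Trem2, the lipid receptor, was the member whose groups separated in both genotypes. It was counted at 389, 367 and 202 CPM in untreated and 129, 170 and 84.5 CPM in LPS-treated CD18fl/fl BMDCs, and every treated library lay below every untreated one. In cKO BMDCs it was 223, 568 and 225 CPM untreated and 141, 158 and 99.4 CPM after LPS, again without overlap. The log2 fold change was -1.32 ± 0.38 (SE; adjusted p = 0.102) in CD18fl/fl and -1.41 ± 0.43 (adjusted p = 0.116) in cKO BMDCs. With the replicate block Trem2 fell in both, by 1.31 (SE 0.22, adjusted p = 0.0188) and 1.28 (SE 0.26, adjusted p = 0.0172) on the log2 scale. On replicates 1 and 2 alone the log2 fold change was -1.34 in CD18fl/fl (adjusted p = 0.000108) and -1.51 in cKO BMDCs, which did not pass (adjusted p = 0.0592). The groups of Trem2 and Lpl did not overlap in CD18fl/fl and those of Trem2 in cKO BMDCs, 2 and 1 of 10 genes, against 29.5% and 28.1% of all genes.

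Lpl, the lipase, was counted at 1041, 880 and 575 CPM in untreated CD18fl/fl BMDCs and at 242, 217 and 539 CPM after LPS. The third pair of libraries differed by a log2 ratio of -0.09, against -2.10 and -2.02 in the others. Its log2 fold change was -1.32 ± 0.44 (adjusted p = 0.136), and the block gave -1.42 ± 0.45 (adjusted p = 0.0879). It fell by 1.86 on the log2 scale (adjusted p = 0.0140) when LPS-treated CD18fl/fl replicate 3 was left out. In cKO BMDCs Lpl was 615, 1295 and 1328 CPM untreated and 425, 368 and 620 CPM after LPS, so that the groups met at their edges only. There it fell by 1.20 on the log2 scale with the block (SE 0.27, adjusted p = 0.0247), and the value without it was -1.24 ± 0.39 (adjusted p = 0.129).

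Apoe was read in the CPM of replicates 1 and 2 and, near its lowest level, of replicate 3. In CD18fl/fl BMDCs it was 2358, 2475 and 4.70 CPM untreated and 333, 427 and 3.07 CPM after LPS. With the block it fell by 2.04 on the log2 scale (SE 0.47, adjusted p = 0.0424), and without the block the value was -2.67 ± 1.96 (adjusted p = 0.444). In the cKO it was 634, 2243 and 1.68 CPM untreated and 40.5, 187 and 4.56 CPM after LPS. The log2 ratios of the first and second pair were -3.97 and -3.59, while that of the third was 1.44, from 58 and 141 reads. Its log2 fold change was -3.73 ± 1.98 (adjusted p = 0.335), and the block gave -2.55 ± 1.16 (adjusted p = 0.168). On replicates 1 and 2 alone Apoe fell in both genotypes, by 2.67 (adjusted p = 1.64e-06) and 3.78 (adjusted p = 0.0354).

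Plin2, the lipid droplet coat, was 476, 591 and 111 CPM in untreated and 207, 249 and 74.0 CPM in LPS-treated CD18fl/fl BMDCs. All 3 same-numbered pairs were lower with LPS, and with the block Plin2 fell by 1.01 on the log2 scale (SE 0.24, adjusted p = 0.0452), against -1.15 ± 0.68 (adjusted p = 0.345) without it. In cKO BMDCs it was 252, 536 and 66.0 CPM untreated and 127, 147 and 62.6 CPM after LPS. The third pair there differed by -0.08 on the log2 scale, and the fitted value was -1.41 ± 0.69 (adjusted p = 0.295), with -1.03 ± 0.35 (adjusted p = 0.0841) under the block.

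**Figure D3:**
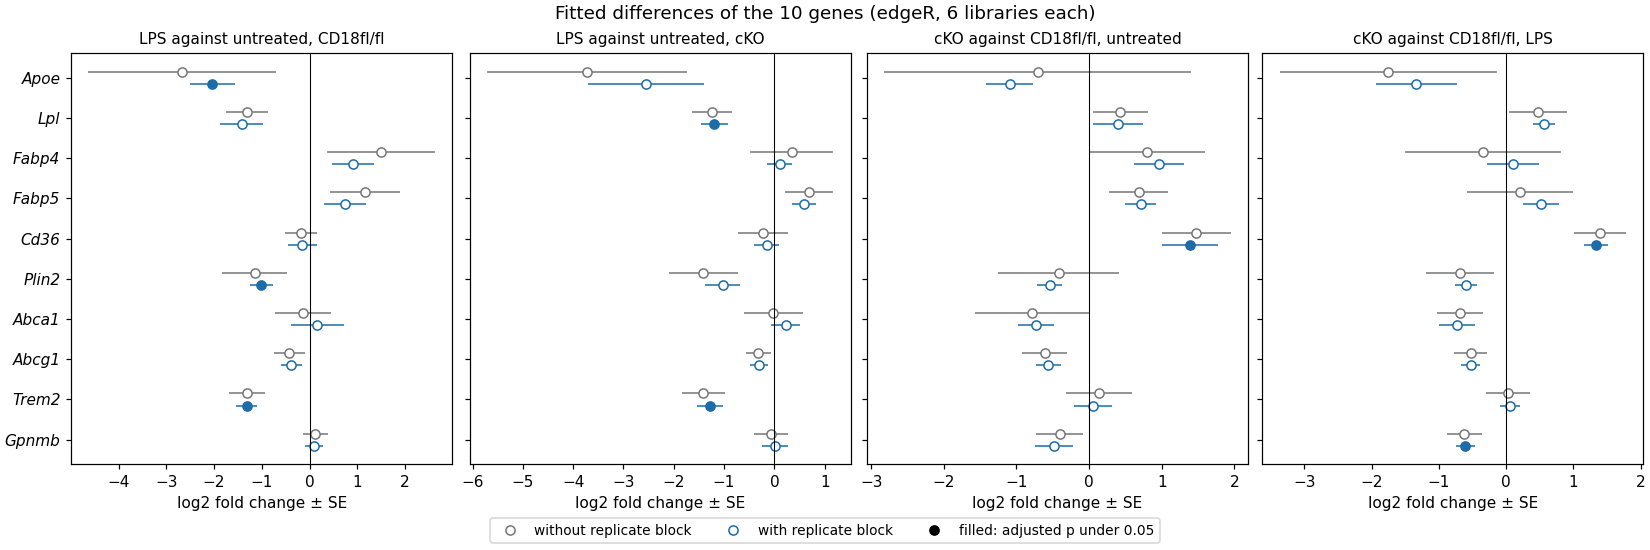
Log2 fold changes ± SE of the 10 genes in the 4 comparisons, fitted without (grey) and with (blue) the replicate block. Filled points pass an adjusted p of 0.05: with the block these are Apoe, Plin2 and Trem2, then Lpl and Trem2, then Cd36, then Cd36 and Gpnmb.

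The fatty acid binding proteins split by replicate number. Fabp5 was 1143, 999 and 508 CPM in untreated and 2348, 3226 and 346 CPM in LPS-treated CD18fl/fl BMDCs. It was higher with LPS in replicates 1 and 2 and lower in replicate 3, and the fitted log2 fold change was 1.16 ± 0.74 (adjusted p = 0.380). It rose by 1.66 (adjusted p = 0.0307) when LPS-treated CD18fl/fl replicate 3 was left out, and by 1.38 (adjusted p = 0.000262) on replicates 1 and 2 alone. In cKO BMDCs Fabp5 was 1189, 1947 and 967 CPM untreated and 2490, 3519 and 945 CPM after LPS (log2 fold change 0.69 ± 0.49, adjusted p = 0.471). Fabp4 was much lower, at 39.4, 39.5 and 5.93 CPM in untreated and 74.0, 160 and 4.83 CPM in LPS-treated CD18fl/fl BMDCs. The cKO BMDCs had 33.8, 89.1 and 20.4 CPM untreated and 47.3, 132 and 13.3 CPM after LPS. Its log2 fold changes of 1.49 ± 1.13 (adjusted p = 0.457) and 0.34 ± 0.82 (adjusted p = 0.859) did not pass. On replicates 1 and 2 alone Fabp4 rose by 1.57 (adjusted p = 0.000790) in CD18fl/fl BMDCs.

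The cholesterol exporters passed the threshold in neither genotype. Abca1 was 33.8, 52.4 and 8.31 CPM in untreated and 22.1, 32.9 and 31.2 CPM in LPS-treated CD18fl/fl BMDCs, with the third pair going up and the others down. The cKO libraries held 12.1, 33.7 and 7.14 CPM of Abca1 untreated and 19.9, 24.1 and 10.7 CPM after LPS. Its fitted values of -0.13 ± 0.59 and -0.02 ± 0.58 turned to 0.16 and 0.22 with the block, none of them past the threshold. Abcg1 was 123, 133 and 67.7 CPM untreated and 89.7, 86.6 and 63.7 CPM after LPS in CD18fl/fl BMDCs. In the cKO libraries Abcg1 was 65.7, 81.3 and 57.2 CPM untreated and 64.3, 60.6 and 44.9 CPM after LPS. All 6 pairs of Abcg1 were lower with LPS, by log2 fold changes of -0.43 ± 0.32 (adjusted p = 0.454) and -0.32 ± 0.25 (adjusted p = 0.514). Gpnmb and Cd36 had log2 fold changes of 0.12 ± 0.26 and -0.17 ± 0.33 in CD18fl/fl and of -0.08 ± 0.34 and -0.22 ± 0.50 in cKO BMDCs, and passed in neither fit.

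With LPS 5 of the 10 genes were lower in all 3 same-numbered pairs of CD18fl/fl BMDCs (Apoe, Lpl, Abcg1, Trem2 and Plin2), against 29.2% of all genes, and 0 were higher in all 3, against 25.5%. In cKO BMDCs 4 were lower (Lpl, Abcg1, Trem2 and Plin2), against 27.4%, and 0 were higher, against 30.1%. The macrophage markers moved with LPS as well. Of 11 tested, 4 passed without and 6 with the block in CD18fl/fl BMDCs, all lower, against 3.89% and 12.8% of all genes in either direction, and their sum was 1786 to 2268 CPM untreated and 1476 to 1967 CPM after LPS. In cKO BMDCs 5 were lower without the block, 7 were lower and 1 higher with it, against 3.99% and 20.2% of all genes, and the sum was 1974 to 2333 CPM untreated and 1155 to 1261 CPM after LPS. C1qa, a complement subunit made by macrophages, fell by 3.03 (adjusted p = 0.0138) and 3.96 (adjusted p = 0.0415) on the log2 scale. The markers did not move as 1 set. In cKO BMDCs Cd14 was the marker that rose with the block (1.67, adjusted p = 0.0313). Adgre1, Fcgr1 and Mertk had log2 fold changes of 0.11, -0.17 and 0.72 there without the block and passed in neither fit. In such bulk samples fewer cells of a type and less RNA per cell cannot be told apart, and the part of these cells in the values of Trem2, Apoe and Plin2 was not tested.

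**Figure D4:**
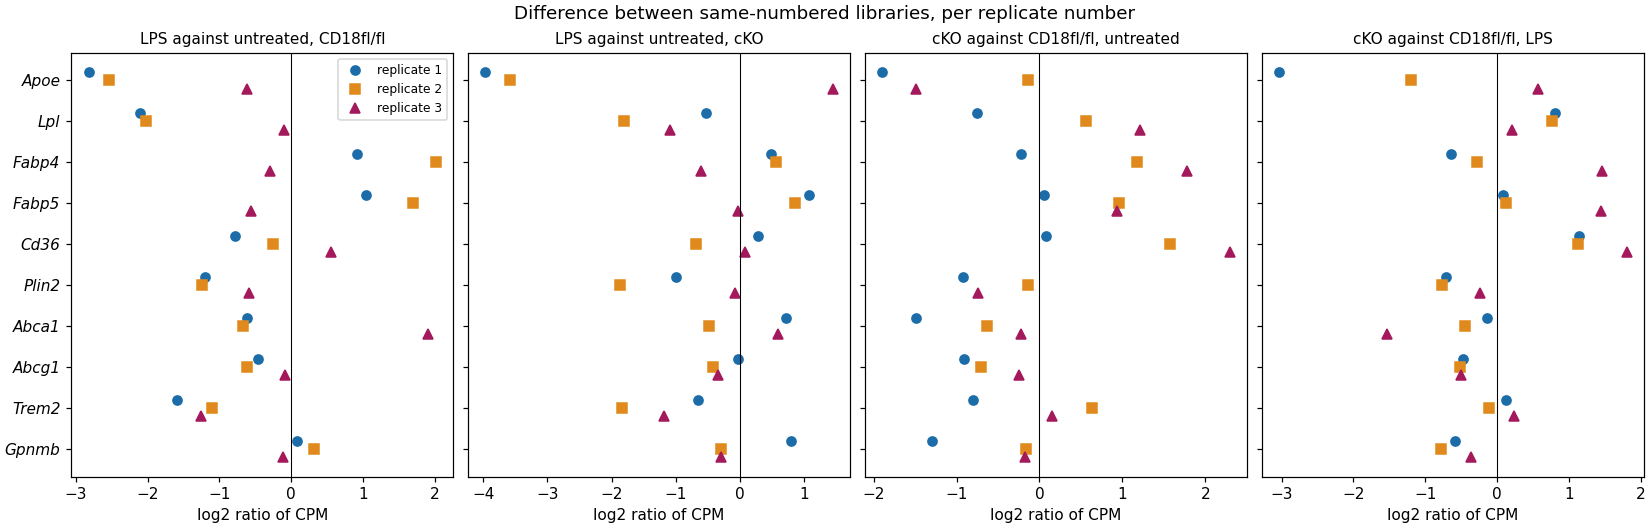
Log2 ratio of CPM between libraries with the same replicate number, for each gene and comparison. With LPS the 3 points of Trem2 lie below 0 in both genotypes, and the point of replicate 3 lies apart from the others for Apoe, Fabp4 and Fabp5.

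The genotypes were compared within each state. In untreated BMDCs 0 of the 10 genes passed without the block, against 0% of 12876 genes (2159 genes and 1 member had an unadjusted p under 0.05, and DESeq2 called 538 genes, 6.03%, and 1 member, Cd36). With the block only Cd36 passed, higher in cKO, against 20.2% of all genes in either direction and 12.1% higher. After LPS 0 passed without the block, against 0% of 12441 genes (1212 genes and 2 members unadjusted, and DESeq2 called 150 genes, 1.3%, and 0 members). With the block Cd36 was higher and Gpnmb lower, 2 of 10 against 10.1% in either direction. The groups of Gpnmb did not overlap in the untreated state, and those of Gpnmb and Cd36 after LPS, against 24.8% and 17.6% of all genes.

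Cd36, the fatty acid and scavenger receptor, was 316, 348 and 185 CPM in untreated CD18fl/fl and 334, 1033 and 906 CPM in untreated cKO BMDCs. After LPS it was 184, 293 and 273 CPM in CD18fl/fl and 406, 643 and 953 CPM in cKO BMDCs, each cKO library above all controls. Replicate 1 of the untreated pair differed by a log2 ratio of 0.08 only, against 1.57 and 2.29 in replicates 2 and 3. The fitted log2 fold changes were 1.48 ± 0.47 (adjusted p = 0.209) untreated and 1.40 ± 0.39 (adjusted p = 0.389) after LPS. With the block Cd36 rose by 1.39 (SE 0.38, adjusted p = 0.0410) and 1.33 (SE 0.18, adjusted p = 0.00921). The largest log2 ratio was that of the replicate 3 pair in both states (2.29 and 1.81). Its cKO libraries held 0 and 2 Y-linked reads against 6957 and 6328 in its controls, so genotype cannot be told apart from that difference there. On replicates 1 and 2 alone, without the block, Cd36 passed in neither state. An offset for gene length with the block gave 1.49 (adjusted p = 0.0383) and 1.47 (adjusted p = 0.0107). Between 72.8% and 80.9% of the Cd36 reads of each library spanned exon junctions and at most 1.65% lay in introns.

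Gpnmb, the phagocyte glycoprotein, was 4330, 4353 and 3958 CPM in untreated CD18fl/fl and 1759, 3886 and 3514 CPM in untreated cKO BMDCs, where replicate 1 was by far the lowest. After LPS it was 4576, 5425 and 3658 CPM in CD18fl/fl and 3039, 3151 and 2847 CPM in cKO BMDCs. With the block it fell by 0.60 on the log2 scale after LPS (SE 0.14, adjusted p = 0.0397), and the value without it was -0.62 ± 0.26 (adjusted p = 0.511). With the length offset the value was -0.45 and did not pass (adjusted p = 0.130). In the untreated state the value was -0.41 ± 0.32 (adjusted p = 0.567), and the block gave -0.48 ± 0.25 (adjusted p = 0.213).

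Over the 10 genes, 5 were lower in cKO than CD18fl/fl BMDCs in all 3 untreated pairs (Apoe, Abca1, Abcg1, Gpnmb and Plin2), against 33.9% of all genes, and 2 were higher in all 3 (Fabp5 and Cd36), against 24% of them. After LPS 4 were lower in all 3 pairs (Abca1, Abcg1, Gpnmb and Plin2), against 26.2%, and 3 were higher (Lpl, Fabp5 and Cd36), against 23.1%. Abcg1 had log2 fold changes of -0.61 ± 0.31 and -0.53 ± 0.25 without the block, with adjusted p = 0.0549 and 0.0589 with it. Abca1 had -0.79 ± 0.78 and -0.69 ± 0.34, and Plin2 had -0.42 ± 0.83 and -0.68 ± 0.50. Apoe had -0.71 ± 2.11 untreated and -1.75 ± 1.61 after LPS, and Trem2 had 0.14 ± 0.46 and 0.03 ± 0.32, which turned to -0.45 and -0.32 with the block and the length offset. None of these passed. With the block and the length offset, Apoe (-1.28, adjusted p = 0.0441) and Plin2 (-0.70, adjusted p = 0.0460) were also lower in untreated cKO, where 11.4% of all genes passed, and Lpl was higher after LPS (0.72, adjusted p = 0.0383), where 7.01% did. On replicates 1 and 2 alone, without the block, 0 of the 10 genes passed in either state, against 10.6% and 4.22% of all genes. With the block added there, 2 passed untreated and 5 after LPS, where 3487 of 13068 and 1400 of 12390 genes passed. Macrophage markers summed to 1786 to 2268 CPM in CD18fl/fl and 1974 to 2333 CPM in cKO BMDCs untreated. After LPS they summed to 1476 to 1967 and 1155 to 1261 CPM, so that the sums of the genotypes did not overlap in the treated state. Most of these treated sums came from Cd14 and Adgre1, with 13551 to 41340 and 16965 to 21811 reads in CD18fl/fl BMDCs. In cKO BMDCs these genes had 9459 to 18510 and 6550 to 10030 reads after LPS. In these reads, which are not scaled by library, Cd14 overlapped between the genotypes and Adgre1 did not. With the block 3 markers were higher and 2 lower of 11 untreated, against 20.2% of all genes in either direction, and 1 was lower of 10 after LPS, against 10.1%. Their part in the values of Cd36 and Gpnmb was not tested.

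Whether the response to LPS differed between the genotypes was tested by the interaction on all 12 libraries. Of 13752 genes 0 passed without and 0 with the block, none of the 10 among them, and DESeq2 without the block also called 0. Without adjustment 97 genes and 0 members had a p under 0.05. The largest fitted difference of the 10 genes was that of Fabp4, -1.07 ± 1.55 on the log2 scale, followed by Apoe with -0.97 ± 2.91. For Cd36 and Trem2 it was -0.01 ± 0.62 and -0.03 ± 0.59.

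Further genes of lipid handling were listed in 7 groups (129 genes, 97 to 103 of them tested). Without the block LPS changed 8 of 99 tested in CD18fl/fl BMDCs (5 higher, 3 lower) and 7 of 102 in cKO BMDCs (5 higher, 2 lower), whereas the genotype changed 0 in either state. Of all genes LPS changed 3.89% and 3.99%, and the genotype 0%. With the block 10 were higher and 11 lower with LPS in CD18fl/fl, and 16 higher and 23 lower in cKO BMDCs. Between genotypes it gave 10 higher and 22 lower of 103 in untreated cKO BMDCs, and 7 higher and 11 lower of 97 after LPS. Of all genes the block called 12.8% and 20.2% with LPS, and 20.2% and 10.1% between genotypes. With the length offset added, the genotype counts were 4 higher and 14 lower, and 4 higher and 8 lower. Among the genes named below, the genotype values of Mitf (adjusted p = 0.113) and Tyrobp (value below) untreated then no longer passed. The same held for Nr1h2 (0.0579) and Soat1 (0.0590) after LPS, and for Lipa with LPS in cKO BMDCs (0.0768).

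Fatty acid binding and activation included 2 genes that rose in both genotypes. Fabp3, another fatty acid binding protein, had 4 to 10 reads in untreated and 526 to 1761 reads in LPS-treated CD18fl/fl BMDCs, and 10 to 30 and 472 to 2914 reads in cKO BMDCs. It rose by 7.28 ± 0.60 (adjusted p = 0.00989) and 6.17 ± 0.77 (adjusted p = 0.0167) on the log2 scale. Unlike Fabp4 and Fabp5, its highest library after LPS was replicate 3 in both genotypes. Acsl1, which activates long-chain fatty acids, rose by 3.19 ± 0.27 (adjusted p = 0.00989) and 3.02 ± 0.35 (adjusted p = 0.0131). Of 10 tested in this list, 2 rose and 0 fell in each genotype, with medians of 0.17 and -0.03.

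In the lipid droplet list, 2 of 16 tested rose in CD18fl/fl and 1 in cKO BMDCs. Hilpda, an inhibitor of the lipase Pnpla2, rose by 3.80 ± 0.51 (adjusted p = 0.0162) in CD18fl/fl and 3.53 ± 0.60 (adjusted p = 0.0316) in cKO BMDCs. Dgat2, which makes triglyceride, rose by 2.24 ± 0.40 (adjusted p = 0.0356) in CD18fl/fl BMDCs. Their direction was the opposite of that of the droplet coat Plin2 with the block. Pnpla2 itself had log2 fold changes of -0.54 ± 0.25 and -0.18 ± 0.37 with LPS, neither past the threshold. With the block it was lower in untreated cKO than CD18fl/fl BMDCs (-0.94 ± 0.19, adjusted p = 0.0160).

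Among lipoprotein and scavenger receptors, Lrp8, a receptor for Apoe, rose with LPS by 2.62 ± 0.37 (adjusted p = 0.0192) and 2.87 ± 0.56 (adjusted p = 0.0415), and Marco rose in cKO BMDCs by 5.17 ± 0.84 (adjusted p = 0.0276). Stab1 fell by 1.69 in CD18fl/fl BMDCs (SE 0.31, adjusted p = 0.0385). With the block each also passed in the other genotype. Marco rose in CD18fl/fl BMDCs (5.90 ± 0.52, adjusted p = 0.00478) and Stab1 fell in cKO BMDCs (-1.49 ± 0.30, adjusted p = 0.0156). Scarb1, which exchanges cholesterol with HDL, fell in cKO BMDCs with the block (-1.07 ± 0.19, adjusted p = 0.0104). In CD18fl/fl BMDCs its same-numbered log2 ratios were -0.83, -1.38 and -0.56. Between genotypes this list had 7 of 16 lower and 0 higher untreated and 4 lower and 0 higher after LPS, with the block, against 20.2% and 10.1% of all genes in either direction, with medians of -0.28 and -0.27 against -0.07 and -0.09 over all genes. Cd68 and Scarb1 were lower in both states. Cd36, which is a member of the 10 genes, moved the other way. Msr1, a scavenger receptor, passed in no comparison.

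**Figure D5:**
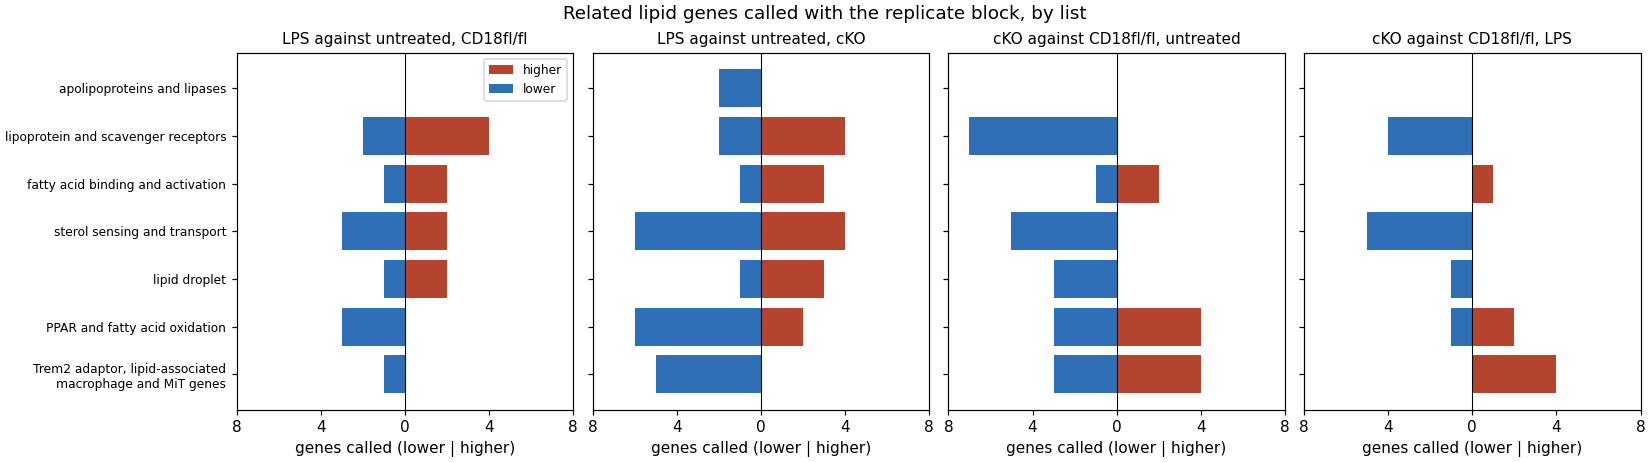
Number of genes of each of the 7 lists called with the replicate block, lower to the left and higher to the right of 0, in the 4 comparisons. Between genotypes the lipoprotein and scavenger receptors and the sterol genes were called lower only (7 and 5 untreated, 4 and 5 after LPS).

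In sterol sensing and transport, Nceh1, which hydrolyses cholesterol esters, fell with LPS by 1.46 (adjusted p = 0.0409) and 2.18 (adjusted p = 0.0407) on the log2 scale. Nr1h3 (LXRα) had log2 fold changes of 2.55 ± 0.95 (adjusted p = 0.168) and 1.75 ± 0.87 (adjusted p = 0.303), and with the block it rose by 2.47 (adjusted p = 0.00749) and 1.69 (adjusted p = 0.00487). Its reads were 225, 164 and 31 in untreated and 898, 892 and 142 in LPS-treated CD18fl/fl BMDCs, so replicate 3 was low as for Apoe. Nr1h2 (LXRβ) was lower in cKO BMDCs with the block, by -0.89 ± 0.18 (adjusted p = 0.0161) untreated and -0.65 ± 0.15 (adjusted p = 0.0397) after LPS. Soat1, which esterifies cholesterol, was lower in cKO BMDCs after LPS with the block (-0.81 ± 0.14, adjusted p = 0.0190), as was Mylip, a ubiquitin ligase and LXR target (-1.15 ± 0.25, adjusted p = 0.0338). Of 19 tested, 5 were lower and 0 higher in cKO BMDCs in each state with the block, against 20.2% of all genes in either direction untreated and 10.1% after LPS.

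PPAR and fatty acid oxidation genes included Ucp2, a carrier of the mitochondrial membrane, which fell with LPS by 2.00 (adjusted p = 0.0336) and 2.25 (adjusted p = 0.0254). Pparg had 173, 209 and 21 reads in untreated and 15, 9 and 7 reads in LPS-treated CD18fl/fl BMDCs. In cKO BMDCs it had 106, 159 and 63 reads untreated and 0, 11 and 0 after LPS. It passed only with the block (adjusted p = 0.0372 and 0.0213), as did Cpt1a, which brings fatty acids into mitochondria (-1.34 ± 0.32, adjusted p = 0.0449 and -0.84 ± 0.19, adjusted p = 0.0248). The apolipoproteins and lipases had 0 of 6 and 0 of 7 tested genes past the threshold without the block. Angptl4, an inhibitor of Lpl, had 14, 183 and 25 reads in untreated and 0 reads in all 3 LPS-treated cKO libraries, and 211, 272 and 18 against 3, 12 and 19 reads in CD18fl/fl BMDCs. Lipa, the lysosomal lipase, fell in cKO BMDCs with the block (-0.60 ± 0.17, adjusted p = 0.0476). Gpihbp1, which anchors Lpl on endothelium, had 0 reads in every library.

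Of the genes around Trem2, its adaptor Tyrobp was lower with LPS in cKO BMDCs with the block (-0.93 ± 0.17, adjusted p = 0.0116). It was higher in untreated cKO than CD18fl/fl BMDCs with the block (0.88 ± 0.17, adjusted p = 0.0127), but not with the length offset added (0.15, adjusted p = 0.576). The lipid-associated macrophage genes Cd9 and Clec7a, a tetraspanin and a β-glucan receptor, were higher in cKO BMDCs in both states with the block, by 1.09 ± 0.16 and 1.40 ± 0.23 untreated and 1.08 ± 0.16 and 1.21 ± 0.13 after LPS. Mitf, which drives Gpnmb in several cell types, was lower in untreated cKO BMDCs with the block (-0.69 ± 0.18, adjusted p = 0.0327). Cst7, Axl and Lgals3 of the same list, a cystatin, a receptor kinase and a lectin, had 0.46, -0.53 and 0.24 untreated and -0.20, -0.36 and -0.03 after LPS with the block, none past the threshold. In all, the block called 4 of the 16 genes higher and 3 lower in cKO BMDCs untreated, and 4 higher and 0 lower after LPS, against 20.2% and 10.1% of all genes in either direction. None of the 16 passed without the block. Cd9, Clec7a, Cst7, Axl and Lgals3 were named after their values were seen.

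The genes whose log2 CPM followed each member most closely over the 12 libraries are given as a description. Libraries share groups and replicate numbers, so these correlations hold both. Apoe followed Gal3st2 and Apol10b (Pearson's r = 0.985 for both), and Plin2 followed Tmem86a (0.972) and Ptpra (0.962). Fabp4 was closest to Fabp5 (0.950) and Fcgr1 (0.944), while Fabp5 was closest to Rdm1 (0.963) and Gm33251 (0.953). Cd36 was closest to P2ry10b (0.966) and Guca1a (0.936), and Lpl to Zranb3 (0.953) and Ltbp2 (0.942). Abcg1 was closest to Sort1 (0.955) and Ldb1 (0.954), and Abca1 to Gzmc (0.903) and Otud1 (0.888). Trem2 was closest to Tceal8 (0.941) and Pdgfb (0.935), and Gpnmb to Adssl1 (0.926) and Rnf128 (0.916). Within the 10 genes the closest pairs were Apoe with Plin2 (r = 0.959) and Fabp4 with Fabp5 (0.950), both of which hold the low values of replicate 3.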

How the data were processed

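MHCII+ BMDCs were sequenced as poly(A) single-end libraries without molecular identifiers. The authors mapped reads to GRCm39 in CLC Genomics Workbench with default settings (the submitters' processing notes name GRCm38, while the deposited coordinates are those of GRCm39), and the annotation release was not given in the sources used here. The authors deposited raw counts per gene (total and unique gene reads), also as TPM and RPKM. Total gene reads were used, and the deposited TPM and RPKM were not. RPKM printed here was computed from counts and exon length. Of the other deposited columns, intron and exon-exon reads gave the intron and junction shares, and exon and gene length the length offset.

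Counts were tested with edgeR 4.0.16 in R 4.3.3 (TMM, filterByExpr with a minimum count of 10, quasi-likelihood test, Benjamini-Hochberg threshold 0.05), with the 6 libraries of each comparison, and 12 for the interaction. The SE is the log2 fold change divided by the square root of F. The labels number the replicates but state no pairing of libraries. Same-numbered deviations from group means correlated by 0.229 to 0.716 over all pairs of groups, other pairs by -0.571 to 0.334. Deviations cancel out within a group, so with replicate 3 apart its negative values with the others follow. The ranges overlap: pairs of replicate 3 lay at 0.445 to 0.716 and those of replicates 1 and 2 at 0.229 to 0.451. Libraries numbered 1 against 2 correlated by 0.120 to 0.334, so pairing between these numbers has little support. The replicate block is therefore given beside results and does not replace them. The alternatives were DESeq2 1.42.0, all libraries in 1 fit, RLE, library size scaling, other filters, unique reads, the block, a length offset (lowess, span 0.3) and each library left out. Replicates 1 and 2 alone and DESeq2 with the block were chosen after seeing the data. The members and lists were chosen with earlier results of these data known. Named genes were the members, a fixed set of partners, up to 2 per direction and list with the smallest adjusted p, and the 2 closest in pattern (log2 CPM, prior count 2). List genes called only with the block were named after their values were seen, as were Apoc1 and Tomm40. 1 gene of the fixed set is not reported here. The procedure was tested on simulated data.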

Additional observations from a re-analysis of the deposited data

How the results depend on the processing

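The replicate block and replicate 3 decided most calls. The number of genes called with LPS in CD18fl/fl BMDCs was 496 without the block and moved to 1627 with it and 1738 with the block and length offset, to 1795 under DESeq2 and to 1068 with all 12 libraries in 1 fit. In cKO BMDCs it was 506 and moved to 2560, 2551, 1531 and 983, and to 805 with no filter on low counts. Between genotypes it was 0 and moved to 2606, 1467, 538 and 19 untreated, and to 1262, 872, 150 and 45 after LPS, with 1 under no filter. The alternatives chosen after seeing the data gave, on replicates 1 and 2, 6140, 2049, 1383 and 523 genes in the 4 comparisons, with the block added 6371, 4057, 3487 and 1400 and 1 in the interaction, and with DESeq2 and the block 3131, 3377, 3036 and 1869 and 129 in the interaction. Leaving out 1 library gave 0 to 3268 genes in CD18fl/fl BMDCs with LPS (0 without replicate 1 or 2 of either state, 3268 without LPS replicate 3) and 0 to 1033 in cKO BMDCs (0 and 4 without untreated replicates 1 and 2, 26 and 2 without LPS replicates 1 and 2, 1033 without LPS replicate 3), while it gave 0 in untreated BMDCs between genotypes and 0 to 1 after LPS.

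Of the 10 genes 0 passed in each comparison without the block. With LPS in CD18fl/fl BMDCs 3 passed with the block, 3 with the length offset, 2 under DESeq2, 1 under library size scaling, 8 on replicates 1 and 2, 9 with the block added, 4 under DESeq2 with the block, and 0 to 2 with 1 library left out (2 without LPS replicate 3). In cKO BMDCs these were 2, 2 and 2, then 2 on replicates 1 and 2, 5 with the block added and 3 under DESeq2 with the block. Between genotypes untreated they were 1 with the block, 3 with the length offset, 1 under DESeq2, 2 on replicates 1 and 2 with the block and 5 under DESeq2 with the block, and after LPS 2, 2, 5 and 5 for the same settings other than DESeq2 alone, which called 0.

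Among 720 refitted log2 fold changes of the 10 genes, 382 of those from other settings kept direction and side of the threshold, 72 came to pass it and 26 turned in direction. With 1 library left out these were 215, 2 and 23. With LPS in CD18fl/fl BMDCs, library size scaling, which moved the median of all genes to -0.32, -0.23, -0.44 and -0.37 in the 4 comparisons, turned Gpnmb to -0.22. Abca1 turned to 0.16 with the block, 0.36 with the length offset and 0.19 under DESeq2 with the block. In cKO BMDCs Abca1 turned to 0.048 in 1 fit of all libraries, 0.22 with the block, 0.18 with the offset, 0.0034 on replicates 1 and 2 with the block and 0.23 under DESeq2 with the block. There Gpnmb turned to 0.0095, 0.12, 0.14 and 0.014 in the last 4 settings, and to 0.024 on replicates 1 and 2. Between genotypes untreated, Trem2 turned to -0.26 under library size scaling, -0.45 with the offset and -0.025 on replicates 1 and 2 with the block, where Lpl turned to -0.041. After LPS, Trem2 turned to -0.21, -0.32 and -0.022 in those settings, to -0.0074 with no filter and -0.034 on replicates 1 and 2, Fabp5 to -0.0087 under library size scaling, and Fabp4 to 0.10 with the block and 0.16 under DESeq2 with the block.

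With 1 library left out, log2 fold changes spanned 0 with LPS in CD18fl/fl BMDCs for Abca1 (-0.59 to 0.44), Cd36 (-0.41 to 0.0022) and Gpnmb (-0.022 to 0.25), and in cKO BMDCs for Abca1 (-0.40 to 0.88), Gpnmb (-0.37 to 0.15), Cd36 (-0.63 to 0.073) and Fabp4 (-0.69 to 1.18). Between genotypes they did so untreated for Trem2 (-0.47 to 0.38), Fabp4 (-0.026 to 1.19) and Plin2 (-1.27 to 0.071), and after LPS for Fabp4 (-1.42 to 0.63), Fabp5 (-0.33 to 0.72) and Trem2 (-0.22 to 0.29). The cause was not tested. The lowest count of a member in a library was 58 reads (Apoe).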
